A study of Mus musculus with 38 samples.

Results

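FosB ChIP-seq peaks in KCl-stimulated mouse cortical neurons were compared between cultures given an shRNA against FosB and cultures given a control shRNA. The comparison used 4 of the 38 samples of the series, namely the FosB shRNA and the control shRNA library of biological sample 5 and the same pair of biological sample 6. All 4 libraries were made with the FosB antibody sc48 and were chosen by their labels. The FosB shRNA lists held 9941 and 7180 peaks in biological samples 5 and 6, and the control shRNA lists held 22933 and 14139.

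The neurons were dissociated from cortices of C57BL/6 embryos of day 16.5, grown for 7 days in vitro and silenced overnight with the sodium channel blocker TTX (1 µM) and the NMDA receptor antagonist DL-AP5 (100 µM). All 4 libraries came from neurons that were then depolarised with KCl for 2 h, so the FosB shRNA and control shRNA groups differ by the shRNA alone, per the labels. The shRNA sequences, the number of hairpins and the remaining FosB protein were not analysed here, and FosB ChIP-seq under FosB shRNA without KCl was not analysed here either. Cultures whose labels name no shRNA gave the other lists used: FosB in silenced and in KCl-treated neurons (biological samples 3 and 4), JunB after KCl (biological sample 4), and H3K27ac (biological samples 1 and 2, merged by the authors). The c-Fos lists came from the control shRNA cultures of biological samples 5 and 6.

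FosB is a member of the Fos family of transcription factors. Fos proteins pair with Jun proteins such as JunB to form AP-1, which binds short palindromic sites in promoters and, more often, in distal enhancers. In neurons, depolarisation induces the genes for c-Fos, FosB and JunB, and the proteins act together on activity-dependent genes. Acetylation of histone H3 at lysine 27 (H3K27ac) marks active promoters and enhancers.

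A control shRNA peak was called retained when a FosB shRNA peak of the same culture shared at least 1 bp with it, and lost otherwise. The unit of replication was the culture, of which there were 2, and the intervals given are Wilson 95% intervals that cover counting error only. The depth of each library is unknown, because the lists hold peaks and not reads, so fewer FosB-bound sites and a shallower FosB shRNA library cannot be told apart. As a measure of the spread between cultures, each control list was also compared with the control list of the other culture. That other list was first cut to its best-scoring peaks. Its length was set to that of the FosB shRNA list of the culture being described. Control peaks of biological sample 5 were thus compared with 9941 control peaks of biological sample 6, and in the reverse case with 7180. The FosB shRNA lists of biological samples 5 and 6 had median peak widths of 221 and 234 bp, with 17.8% and 4.94% of peaks in non-distal H3K27ac. The control lists stood further apart in width, with medians of 767 and 254 bp, and had 18.9% and 3.39% of peaks in non-distal H3K27ac. The settings with which each list was called are not stated in the sources used here, so other calling settings for the wide control list of biological sample 5 cannot be told apart from depth or binding in its shares. Values are therefore given for each culture on its own.

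Most control FosB peaks had no counterpart under FosB shRNA in either culture. In biological sample 5, 16530 of 22933 control peaks were lost (72.1%), and in biological sample 6, 9885 of 14139 (69.9%). The log2 difference in peak number was -1.21 and -0.98, a mean of -1.09 ± 0.161 (SD, n = 2 cultures; exact two-sided permutation test, p = 0.33, the smallest value that 2 against 2 libraries allow). The retained share was 27.9% (27.3% to 28.5%) in biological sample 5 and 30.1% (29.3% to 30.8%) in biological sample 6. In the other control list at this length, 30.7% and 36.6% of the same control peaks were found. The retained share minus this between-culture share was -2.83 and -6.51 percentage points, a mean of -4.67 ± 2.60 (SD, n = 2; exact sign-flip test, p = 0.5, the smallest value that 2 cultures allow). With the FosB shRNA and control lists all cut to peaks scoring at least 100, it was -0.401 and -2.67. With peak centres within 200 bp it was -3.96 and -2.31, so which culture had the larger gap depended on the overlap rule. In the uncut control list of the other culture, 38.0% and 64.6% were found. Requiring an overlap of 50% of the shorter peak, 72.2% and 71.4% of control peaks were lost, and with peak centres required within 200 bp, 75.2% and 70.2%.

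**Figure D1:**
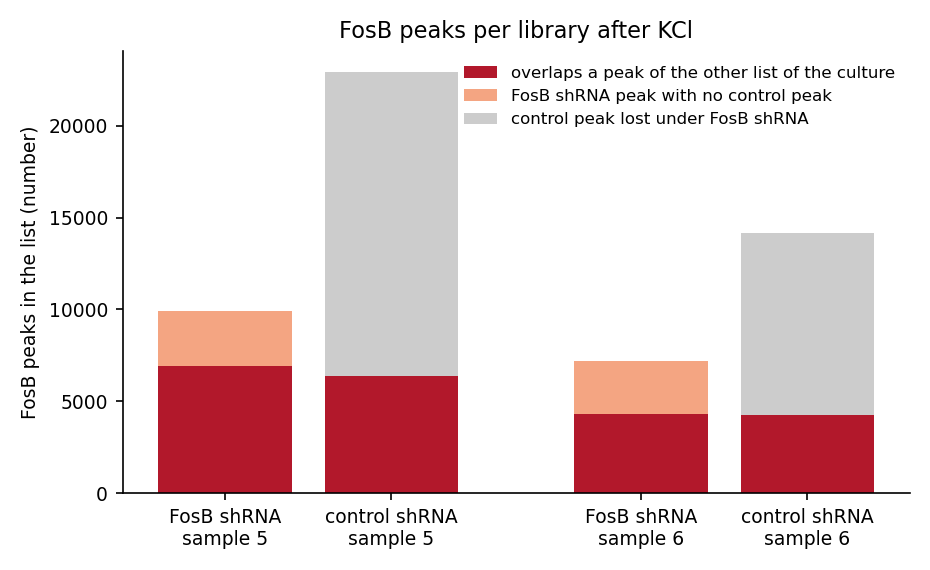
Number of FosB peaks (y axis) in the FosB shRNA and control shRNA library of each biological sample, split by overlap of at least 1 bp with the other list of the same culture. The grey parts are the 16530 and 9885 lost control peaks. The pale parts are the 3022 and 2878 FosB shRNA peaks with no control peak in their culture.

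Retention followed the strength of the control peak. The score of a peak is the authors' own value, 10 times the -log10 of its p, so that 50 stands for 1e-05 and 100 for 1e-10, and was used to rank peaks within a list. Control peaks were divided into 5 groups of equal size by score, with the best in group 1. From group 1 to group 5, the retained share was 65.9%, 31.7%, 20.7%, 12.9% and 8.44% in biological sample 5. For biological sample 6 the shares were 67.9%, 34.2%, 21.9%, 15.0% and 11.3%. The cultures gave nearly the same curve, with a difference between groups 1 and 5 of 57.4 and 56.6 percentage points (exact sign-flip test, p = 0.5, the smallest possible). Group 1 made up 47.2% of the retained and 9.47% of the lost peaks of biological sample 5, and 45.2% and 9.18% of those of biological sample 6.

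By score group, the control list of the other culture gave a curve of the same shape. At the same list length it held 70.4%, 37.7%, 21.6%, 13.9% and 10.1% of the control peaks of biological sample 5 from group 1 to group 5, and 73.3%, 46.2%, 29.4%, 19.1% and 14.9% of those of biological sample 6. By the 1 bp rule, the retained share lay below this in all 5 groups of both cultures. For biological sample 6, the list compared was the wide control list of biological sample 5. The gap was widest in group 2, at -5.93 and -12.0 percentage points, and in group 5 it was -1.70 and -3.61. Of the best-scoring 2294 and 1414 control peaks, 79.9% and 81.7% were retained, against 81.6% and 82.7% found in the other control list.

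**Figure D2:**
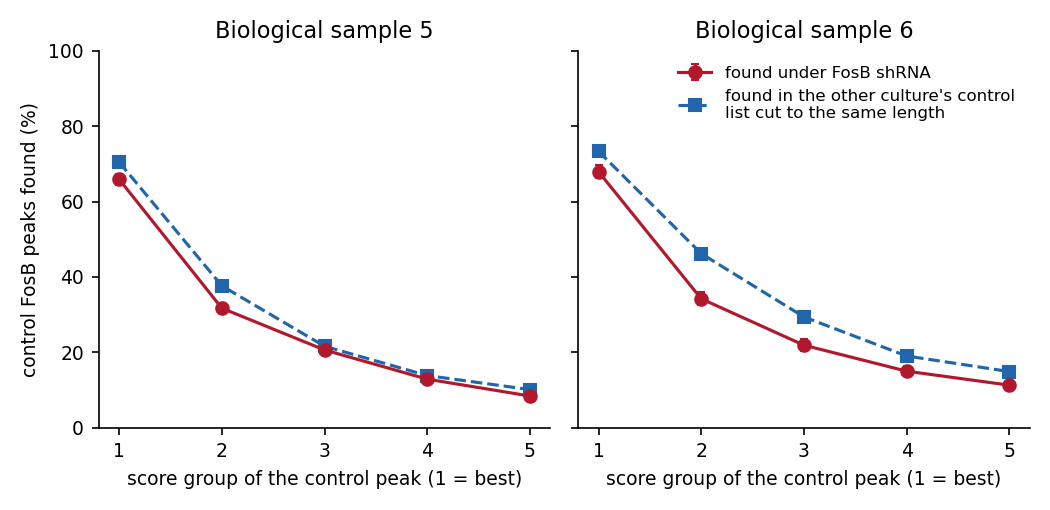
Share of control FosB peaks found (y axis, %) by score group of the control peak (x axis, 1 = best) in biological samples 5 and 6. Red circles give the share retained under FosB shRNA with Wilson 95% intervals, and blue squares the share found in the control list of the other culture cut to the same length; the red points lie below the blue in all 5 groups of both cultures.

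Some strong control peaks were lost all the same. The lost peaks had median scores of 73.7 and 71.4, against 140 and 149 for the retained ones, but they reached 920.62 in biological sample 5 and 2240.94 in biological sample 6. These 2 peaks were picked out after their values were seen. The peak at chr1:42648363-42649501 (build mm9, as are all positions here) was lost in biological sample 5, and the peak at chr15:95106917-95107520 in biological sample 6. Both overlapped c-Fos peaks of their culture and a peak in each of the 3 other KCl FosB lists, and both lay outside H3K27ac peaks and outside the unstimulated FosB lists. Most control peaks of score group 1 overlapped a c-Fos peak, 4313 of 4587 and 2696 of 2828.

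A retained peak mostly had a single FosB shRNA counterpart. In biological sample 5, with its wide control peaks, 456 of 6403 retained peaks held more than 1 FosB shRNA peak, and in biological sample 6, 111 of 4254 did. Across retained peaks the control and FosB shRNA scores had a Spearman rho of 0.45 in each culture, over peaks that share their libraries.

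Whether the same sites were lost in both cultures was read from 8711 control peaks of biological sample 5 that overlapped a control peak of biological sample 6. Of these common sites, 2449 (28.1%) were retained in both cultures and 3719 (42.7%) were lost in both, while 1642 were retained in biological sample 5 alone and 901 in biological sample 6 alone. Retention in biological sample 6 was 59.9% at sites retained in biological sample 5 and 19.5% at sites lost there. The split was also seen among sites of like score. Within the best-scoring group of 1742 common sites the shares were 79.3% and 49.8%, and within the lowest-scoring group of 1743 they were 37.9% and 10.6%.

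The 5 best-ranked common sites that were retained in both cultures all lay outside H3K27ac and held no classified enhancer. At chr13:58755143-58756853 the peak scored 495.36 and 181.11 in the FosB shRNA lists and 3100 in both control lists. At chr17:66310561-66311962 it scored 1353.31 and 317.65 with FosB shRNA and again 3100 with control shRNA, and at chr13:45718726-45720001 395.44 and 241.95 with FosB shRNA and 2830.32 and 2495.42 in the control lists. These 3 sites overlapped c-Fos, JunB and KCl FosB peaks in every list examined and no unstimulated FosB peak. At the other pair the scores of the lists were close. The site at chr2:98506257-98507629 scored 2675.25 and 3174.57 with FosB shRNA and 2507.65 and 2685.89 with control shRNA, and that at chr17:39979576-39985914 scored 3100 in both FosB shRNA lists, against 3100 and 2809.74 in the control lists. Both were also present in each unstimulated FosB list, and the chr17 site overlapped no c-Fos peak in biological sample 6. No region was removed from the lists, and whether the signal at this pair depends on FosB was not tested. Scores depend on the depth of each list, so no change of binding is read from them.

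The 5 best-ranked common sites that were lost in both cultures had control scores between 309.55 and 558.81 in biological sample 5 and between 341.86 and 442.15 in biological sample 6. They lay at chr8:97733181-97734804, chr1:39029526-39030690, chr14:24570094-24571107, chr3:117641235-117642098 and chr3:18026896-18027743, by the coordinates of the biological sample 5 peak. All 5 overlapped c-Fos peaks in both cultures, a JunB peak and a KCl FosB peak of biological sample 3. None overlapped an unstimulated FosB peak or an H3K27ac peak, and the first 2 held an unclassified distal enhancer. These sites and the retained ones above were picked for their high control scores. In score group 1, c-Fos peaks overlapped 4313 of 4587 and 2696 of 2828 control peaks of either fate. JunB peaks overlapped 3805 and 2658 of them.

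Retention rose with the number of other KCl FosB lists that held the control peak, and so did the control score. A further 3 lists could hold a control peak, namely those of biological samples 3 and 4 and the uncut control list of the other culture. With 0, 1, 2 or 3 of them holding the peak, retention was 11.6%, 28.8%, 51.2% and 79.4% in biological sample 5. In biological sample 6 it was 13.3%, 25.6%, 39.2% and 66.9%. Median control scores over the same steps were 67.0, 91.7, 140 and 258 in biological sample 5. In biological sample 6 they were 62.8, 79.0, 117 and 217. Retention by number of lists was not compared within score groups. Peaks in 0 other lists made up 57.0% and 38.8% of the lost peaks, but 19.4% and 13.8% of the retained ones. JunB, a partner of FosB in AP-1, gave a split in the same direction. Control peaks with a KCl JunB peak were retained in 42.8% and 38.4% of cases, against 15.4% and 14.4% of those without. The direction was the same in all 5 score groups of both cultures. Median scores were 115 and 109 with JunB, against 70.0 and 62.5 without. The other control list of equal length held 55.5% and 49.2% of those with JunB, against 9.80% and 12.9% of those without. The retained share minus this share was -12.7 and -10.7 percentage points with JunB, and 5.57 and 1.45 without.

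Control peaks that overlapped an unstimulated FosB peak, called unstimulated-bound here, were retained more often than the others. Whether the unstimulated peaks mark FosB or signal that does not depend on FosB was not tested. Of the control peaks that overlapped an unstimulated FosB peak of biological sample 3 or 4, 55.1% (52.9% to 57.2%) of 2027 were retained in biological sample 5 and 76.9% (73.9% to 79.7%) of 823 in biological sample 6. Of those with no unstimulated FosB peak, 25.3% of 20906 and 27.2% of 13316 were retained. The direction was the same in all 5 score groups of both cultures, and with the groups weighted alike the difference was 21.7 and 40.7 percentage points, a mean of 31.2 ± 13.5 (SD, n = 2; exact sign-flip test, p = 0.5, the smallest possible). In the lowest score group, 65 of 232 and 35 of 79 of the unstimulated-bound peaks were retained, against 322 of 4354 and 285 of 2748 of the others. This comparison within score groups was added after the results were seen. Unstimulated-bound peaks were wider than the others, with median widths of 914 and 331 bp against 755 and 250 bp, and widths were not matched.

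The 2 cultures differed most in non-distal H3K27ac. Among control peaks outside H3K27ac, 78.4% of 634 unstimulated-bound peaks were retained in biological sample 5 and 76.8% of 607 in biological sample 6, against 21.4% and 24.9% of the others. In non-distal H3K27ac the shares were 34.8% of 1067 and 59.6% of 47, against 21.1% and 25.9%. Stratified by both score group and H3K27ac context, the difference was 36.0 and 41.7 percentage points. The unstimulated list of biological sample 3 had 56.4% of its 4229 peaks in non-distal H3K27ac, and that of biological sample 4 had 3.23% of its 2041 peaks there. Over all contexts, the other control list of equal length held 29.4% and 58.4% of the unstimulated-bound peaks, against 30.9% and 35.2% of the others, so the order differed between the cultures. Outside H3K27ac it held 62.6% and 51.4%, against 33.8% and 29.1%. The retained share minus the between-culture share outside H3K27ac was 15.8 and 25.4 percentage points at unstimulated-bound peaks, and -12.4 and -4.23 at the others. At unstimulated-bound peaks it was 30.1 and 4.14 in distal H3K27ac and 30.3 and -19.1 in non-distal H3K27ac, where the sign differed between the cultures. At the common sites, 464 of 667 unstimulated-bound sites (69.6%) were retained in both cultures and 54 (8.10%) lost in both, against 24.7% and 45.6% of the 8044 other common sites.

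**Figure D3:**
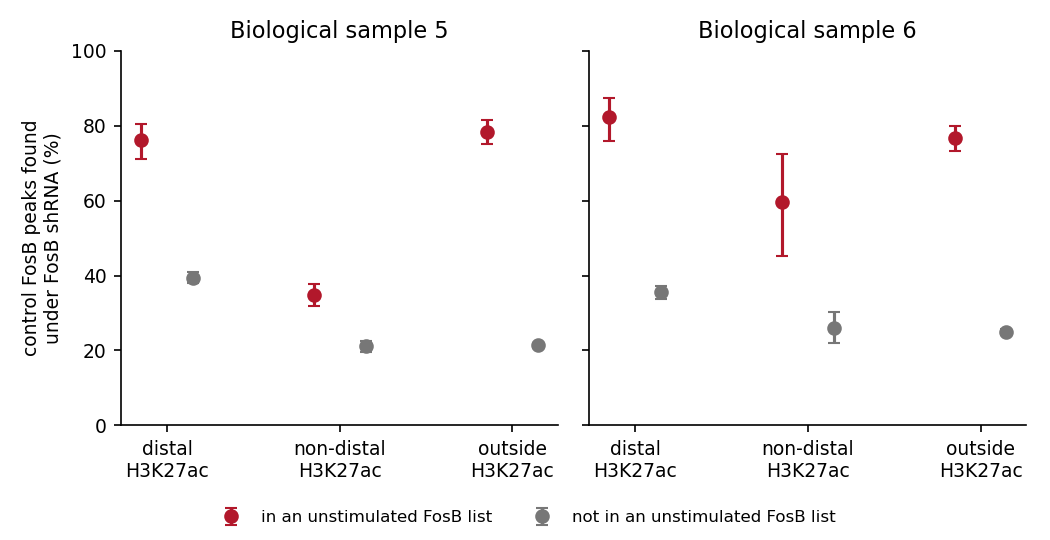
Share of control FosB peaks retained under FosB shRNA (y axis, %, with Wilson 95% intervals) by H3K27ac context after KCl (x axis), for peaks in an unstimulated FosB list of biological sample 3 or 4 (red) and for the others (grey). The red points lie above the grey in all 3 contexts of both cultures, from 34.8% to 82.2% against 21.1% to 39.4%.

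Over all scores, control peaks in distal H3K27ac were retained more often than the rest. In distal H3K27ac peaks, 41.8% of 4918 control peaks were retained in biological sample 5 and 38.1% of 3019 in biological sample 6. Outside H3K27ac the shares were 24.0% of 13682 and 27.8% of 10640, so distal peaks were higher by 17.8 and 10.3 percentage points (exact sign-flip test, p = 0.5, the smallest possible). With the FosB shRNA and control lists both cut to scores of at least 100, the difference was 12.6 and 5.68. In non-distal H3K27ac, which includes promoters, the shares were 24.4% of 4333 and 29.2% of 480. Distal peaks had higher control scores than peaks outside H3K27ac, with medians of 97.4 and 99.6 against 79.8 and 79.8, but they were also higher within each score group in both cultures. In the lowest score group, 15.4% and 15.7% of distal peaks were retained, against 6.56% and 10.5% of peaks outside H3K27ac.

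Set against the other control list, the contexts behaved differently in the 2 cultures. In distal H3K27ac, 39.6% of the biological sample 5 peaks and 54.0% of the biological sample 6 peaks were found in the other control list of equal length, a difference of 2.24 percentage points for the retained share in the first culture and -15.8 in the second. In non-distal H3K27ac, 6.90% of the biological sample 5 peaks and 65.0% of the biological sample 6 peaks were found there. The control list of biological sample 5 held 4333 non-distal peaks and that of biological sample 6 held 480, and the difference was 17.5 and -35.8. Outside H3K27ac it was negative in both cultures, at -11.1 and -2.54. Of control peaks in distal H3K27ac that also overlapped an H3K27ac peak of silenced neurons, 42.6% and 39.1% were retained. Of those in distal H3K27ac that overlapped none, 40.2% and 36.7% were.

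Control FosB peaks shared with c-Fos were retained more often than those without c-Fos, but the order turned round among peaks of like score. Of the control peaks, 14478 (63.1%) in biological sample 5 and 9972 (70.5%) in biological sample 6 overlapped a c-Fos peak of the same control culture. Of these, 32.9% and 33.8% were retained, against 19.3% and 21.2% of the peaks without c-Fos, a difference of 13.6 and 12.6 percentage points (exact sign-flip test, p = 0.5, the smallest possible). With FosB lists of the same length the difference was 3.04 and 3.08. With the FosB shRNA and control lists both cut to scores of at least 100, it was -1.73 and -1.18. Peaks with c-Fos had median scores of 104 in both cultures, and those without had 65.1 and 61.9.

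Within each of the 5 score groups of both cultures, the retained share was lower for peaks with c-Fos. In group 1, 65.3% of 4313 and 67.1% of 2696 peaks with c-Fos were retained, against 74.5% of 274 and 84.8% of 132 peaks without. In group 2 the shares were 29.5% and 32.5% with c-Fos, against 39.5% and 43.5% without. In group 5 they hardly differed, at 8.27% and 11.2% with c-Fos and 8.53% and 11.4% without. Weighted alike over the score groups, the difference was -5.63 and -6.72 percentage points, a mean of -6.17 ± 0.772 (SD, n = 2; exact sign-flip test, p = 0.5, the smallest possible). Median scores inside group 1 were higher with c-Fos (219 and 241) than without (175 and 208). This comparison was also added after the results were seen. Without the unstimulated-bound peaks, the difference was -3.20 and -4.47. The share with c-Fos was then lower in 4 of 5 score groups of biological sample 5 and 3 of 5 of biological sample 6. With the unstimulated-bound peaks kept, the difference was -13.2 and -14.2 with lists of the same length. It was -20.3 and -19.2 with the FosB shRNA and control lists both cut to scores of at least 100. With the c-Fos list of the other culture it came to 2.33 and -3.84, so the direction in biological sample 5 depended on which c-Fos list was used.

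The other control list gave the opposite order. At equal length it held more of the peaks with c-Fos than of those without in all 5 score groups of both cultures, for example 71.5% and 74.4% against 53.3% and 51.5% in group 1. Over all scores the retained share minus the share found in the other control list was -7.64 and -13.3 percentage points for peaks with c-Fos, and 5.42 and 9.86 for peaks without. The c-Fos peaks of a culture were mapped in its control shRNA cells, and c-Fos binding under FosB shRNA was not analysed here.

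**Figure D4:**
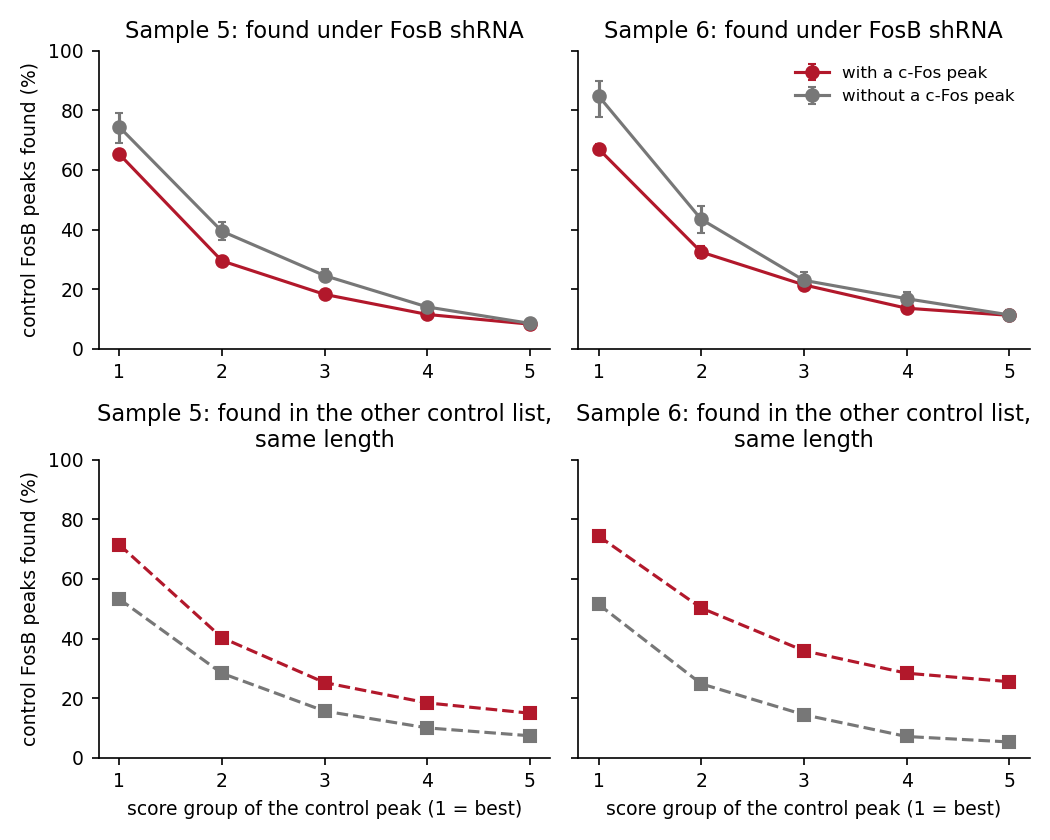
Share of control FosB peaks found (y axis, %) by score group (x axis, 1 = best), for peaks with a c-Fos peak of the same control culture (red) and without (grey). The upper panels give the share retained under FosB shRNA with Wilson 95% intervals, with the red points below the grey in all 5 groups (65.3% and 67.1% against 74.5% and 84.8% in group 1); the lower panels give the share found in the other control list of the same length, with the red points above the grey.

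Distal enhancers were taken from the authors' list of sites with the coactivator CBP and the enhancer mark H3K4me1, which they divide by how H3K27ac changed after KCl. Of control peaks that held such a site, 49.1% of 4779 were retained in biological sample 5 and 44.0% of 2955 in biological sample 6. Of control peaks with no such site, 22.4% and 26.4% were retained. Median scores were 112 and 118 with a site, against 78.4 and 76.8 without. The other control list of equal length held 49.7% and 61.8% of the peaks with a site, against 25.8% and 29.9% of those without. At enhancers whose H3K27ac increased, 431 of 836 FosB-bound sites (51.6%, 48.2% to 54.9%) kept their peak in biological sample 5 and 248 of 562 (44.1%, 40.1% to 48.3%) in biological sample 6. At constant enhancers 58.6% of 278 and 43.5% of 131 did, at decreasing enhancers 48.1% of 212 and 46.9% of 113, and at enhancers with no H3K27ac 41.1% of 791 and 46.3% of 518. The remaining unclassified sites kept 50.3% and 43.1%.

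Over all scores, no class stood apart in both cultures. Increasing minus constant enhancers gave -7.08 and 0.617 percentage points, increasing minus decreasing 3.44 and -2.77, and increasing minus no H3K27ac 10.5 and -2.20. The signs were opposite in the 2 cultures in each of these comparisons (exact sign-flip test, p = 1). In the other control list of equal length, 61.2% and 67.3% of the FosB-bound increasing enhancers were found. The retained share minus this share was -9.69 and -23.1 percentage points for increasing enhancers and -10.6 and -12.9 for those with no H3K27ac. For constant enhancers it was 18.3 and -17.6.

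**Figure D5:**
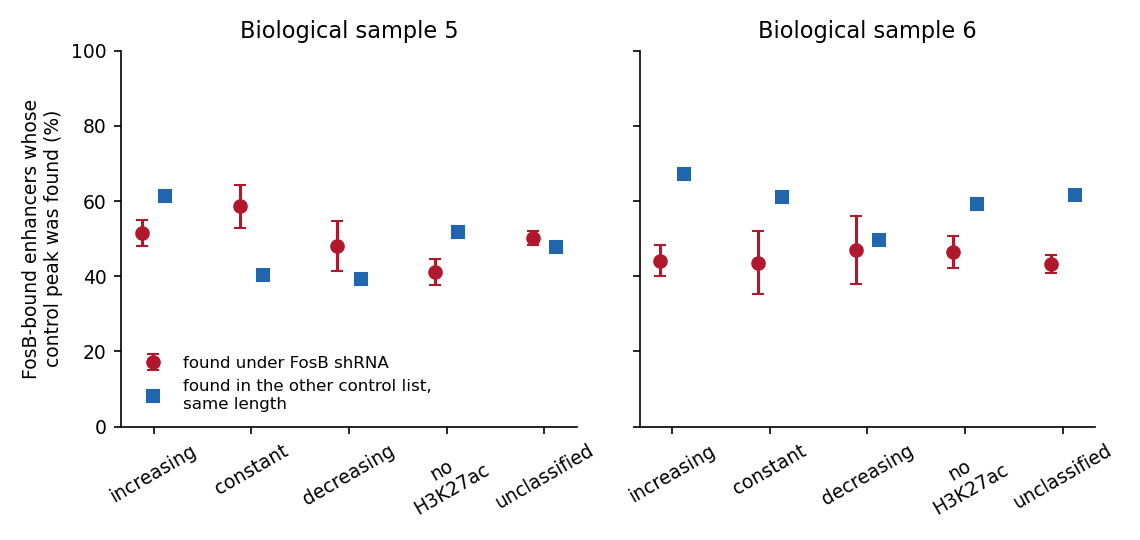
Share of FosB-bound distal enhancers whose control peak was found (y axis, %) by the authors' enhancer class (x axis) in each biological sample. Red circles give the share retained under FosB shRNA with Wilson 95% intervals, and blue squares the share found in the other control list of the same length; for increasing enhancers the red points (51.6% and 44.1%) lie below the blue (61.2% and 67.3%) in both cultures.

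Of 498 common control peaks over increasing enhancers, 194 were retained in both cultures and 139 were lost in both. The best-ranked retained ones lay at chr6:70821703-70822934, chr9:77328385-77329485 and chr3:50998787-51000072. At the chr9 site the peak scored 1111.7 and 918.23 with FosB shRNA and 1078.88 and 845.44 with control shRNA, and an unstimulated FosB peak of biological sample 4 was present. At the other two no unstimulated FosB peak was listed, and the FosB shRNA scores were 308.84 and 109.25 on chr6 and 588.64 and 207.0 on chr3. The best-ranked lost ones lay at chr3:28421840-28422788, chr9:101145916-101146691 and chr2:6287414-6288547, with control scores of 179.8 to 386.88. All 6 sites, which were picked for their high control scores, overlapped c-Fos, JunB and the KCl FosB peaks of biological samples 3 and 4.

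FosB shRNA lists also held peaks that the control list of the same culture did not, 3022 (30.4%) in biological sample 5 and 2878 (40.1%) in biological sample 6. Neither control list held 2726 (27.4%) and 1822 (25.4%) of the FosB shRNA peaks. These were weak, with median scores of 58.2 and 59.3, against 88.0 and 100.3 for the FosB shRNA peaks present in their own control list. A control-culture c-Fos peak overlapped 14.9% and 13.6% of them, against 74.3% and 79.4% of the peaks shared with the own control. The FosB shRNA list of the other culture held 9.90% and 14.6% of them, against 45.0% and 61.1% of the shared peaks. The best-scoring such peaks lay at chr13:89747037-89747494 in biological sample 5, with a score of 333.44, and at chr12:63443193-63443765 in biological sample 6, with 379.1. The first overlapped unstimulated and KCl FosB peaks of biological sample 4, and the second overlapped no other AP-1 peak examined.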

How the data were processed

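The deposited peak lists were used unchanged. The submitters' processing notes name BWA and build mm9. MACS appears in the peak names of the deposited files, with no version. Every AP-1 list belongs to 1 library, per the labels. The deposited score of a peak is 10 times its -log10 p, so that the lowest, 50, stands for 1e-05. Enhancer classes and combined c-Fos sites are other deposited lists, which give positions alone. The rules behind them are not stated in the sources used here.

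Overlap meant at least 1 bp. H3K27ac context was assigned as non-distal first, then distal, from the merged KCl lists. Libraries with 1 biological sample number share a culture, per the labels, so the comparison was made within each culture, and the unblocked permutation test and the paired sign-flip test are both given. The members and lists were chosen with earlier results of these data known. Named sites are the 5 best-ranked common control peaks retained and lost in both cultures, 3 of each over increasing enhancers, and the best FosB shRNA peaks in neither control list; 2 lost peaks were added later. Genes were not assigned, since the annotation was of another build than mm9, and chromosome 18 was not named. On simulated overlaps, 100% of planted peaks were found among 22933 and 14139 control peaks, and 0% and 0.03% of the others were called. The planted peaks were centred on control peaks, so this checks the counting of overlaps and gives no error rate for lost or retained peaks. Alternatives were 50% of the shorter peak, centres within 200 bp, equal list lengths, autosomes, merging within 500 bp and other c-Fos lists. Each culture was left out in turn. A score of at least 100 was also required, in the FosB shRNA and control lists alike. Python 3.11.15, numpy 2.4.6, pandas 2.3.3, scipy 1.17.1 and matplotlib 3.10.9 were used.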

Additional observations from a re-analysis of the deposited data

Results flagged for a closer look

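In 3 splits of the control peaks, the retained share minus the share found in the other control list of equal length had opposite signs on the 2 sides of the split in both cultures. Between peaks with and without a c-Fos peak the mean difference was -18.1 percentage points. Between peaks with and without an unstimulated FosB peak it was 28.9. Between peaks with and without a KCl JunB peak it was -15.3. None of these differences was tested over more than 2 cultures, the 2 shares use the same control peaks, and the difference itself was not tested.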

How the results depend on the processing

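With the biological sample as a replicate block, the mean log2 difference in peak number was -1.09 (exact sign-flip test, p = 0.5). Of 85 alternatives that kept both cultures, for 11 results with a direction, 79 kept the direction and 6 turned it. Direction was judged on the mean of the 2 cultures, and the replicate block could not turn it, since it leaves that mean unchanged. The cultures agreed in sign in only 1 of 8 alternatives for increasing minus constant and 1 of 8 for increasing minus no H3K27ac. For increasing minus decreasing enhancers they agreed in 3 of 8. The mean retained share was 27.3% with centres within 200 bp, 46.3% with lists of the same length and 26.2% without peaks of the unstimulated FosB lists (added after the results were seen). The difference with minus without c-Fos, not split by score group, was -1.46 percentage points with the FosB shRNA and control lists cut to scores of at least 100. Increasing minus decreasing enhancers turned to -7.41 at scores of at least 100, -1.27 with centres, -4.01 at equal length, -0.119 with merged peaks and -1.57 where the enhancer itself had to lie in a FosB shRNA peak. The causes were not tested.

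Leaving out a culture turned the direction in 3 of 22 cases, all enhancer class differences without biological sample 5. It gave -1.21 to -0.98 for the log2 difference and 27.9% to 30.1% for the retained share. The range was -7.08 to 0.617 for increasing minus constant, -2.20 to 10.5 for increasing minus no H3K27ac and -2.77 to 3.44 for increasing minus decreasing enhancers. With the c-Fos list of the other culture, the c-Fos difference within score groups had a mean of -0.758 and opposite signs in the cultures. Depth is unknown, no exact test over 2 cultures can go below p = 0.33, and H3K27ac and enhancer classes come from other cultures, whose labels name no shRNA.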
